A study of Malus x robusta with 27 samples.

Results

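Cytochrome P450 genes expressed in crabapple flowers are described here. The deposited table gives Pfam domains for its genes, and 366 of its 48445 genes carry the P450 domain. Of these, 201 (54.9%) were kept because an FPKM of 1 or more was reached in 3 or more of the 27 libraries, so the genes were chosen by their level and the counts below describe them without supporting anything further. FPKM is the number of fragments on a gene relative to its length and to the depth of the library. The same filter kept 29660 genes (61.2%) of the whole table. Of the other 165 P450 genes, 40 were listed at 0 in every library, and none of the 165 enters the counts below.

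The flowers came from standard Malus × robusta (Mr, 7-year-old trees) and from a strongly fragrant (SF) and a weakly fragrant (WF) individual among its progeny. Whole single flowers were sampled in the small balloon stage (EB, petals still closed), the early flowering stage (ES, petals opening) and the late flowering stage (LS, fully open with dehisced stamens). No group received a treatment, and each of the 9 groups had 3 biological replicates. SF and WF are single trees, so their replicates are flowers of 1 tree, and the p-values measure only the spread between these samples. In whole flowers a lower level can come from fewer cells of a type or from less RNA per cell, and these cannot be told apart.

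P450 enzymes are heme proteins that place oxygen into small molecules, and in plants they form one of the largest enzyme families. They hydroxylate cinnamic acid and later intermediates of the phenylpropanoid pathway, oxidize fatty acids and terpenes, and make or inactivate hormones such as gibberellins, brassinosteroids and abscisic acid. Most take their electrons from a P450 reductase, some with the help of cytochrome b5. Plant P450 genes often lie in runs of related copies along a chromosome. The table names only the domain for nearly all of these genes, so no substrate or subfamily is given to an identifier here.

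The 27 libraries held 16146228 to 29558381 fragments on genes, with a median of 19419905, and 3 fragments on a gene of 1 kb corresponded to an FPKM of 0.095 to 0.193. A pair of libraries showed genes that were otherwise near 0 in their material. Whether these libraries hold RNA of other flowers was not tested. SF_LS_1 had 7.86% of the WF level (median over 86 such genes) and 5.10% of the Mr level (99 genes). In Mr_LS_2 the median was 16.7% of the WF level over 149 genes and 6.89% of the SF level over 177 genes. The medians of the other 25 libraries were 0, except 0.688% of the Mr level in WF_ES_1. Some counts at LS are therefore also given without SF_LS_1, or without SF_LS_1 and Mr_LS_2. The fold changes of single genes at LS are those with all libraries. Markers of the organ were present throughout. The 48 expressed of 60 K-box MADS genes, a group that includes those that specify floral organs, summed to an FPKM of 1716 to 3144 per library. The 39 expressed of 42 chlorophyll a/b binding genes, a sign of green tissue, summed to 3704 to 8201 in SF and WF libraries and to 7593 to 15544 in Mr libraries, so green tissue transcripts moved with the contrast of SF with Mr.

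The expressed P450 genes lay on all 17 chromosomes of the apple HFTH1 genome (version 1.0), with most on chromosomes 15 (25 genes), 6 (19), 14 (18) and 2 (17). Their median length in the table was 1569 bases, and 35 were shorter than 1 kb. Another Pfam domain was annotated in 23 of them, and 22 were newly assembled genes. The median of their mean FPKM was 4.43, against 9.45 over all genes tested. A mean of at least 100 was reached by 7 genes, of at least 10 by 65, and 34 had a mean under 1. An FPKM of at least 1 in all 27 libraries was found for 78 genes, while 9 passed the filter in exactly 3 libraries. The gene just inside the filter was HF18615 (chromosome 2, 2640357 to 2644122), whose third-highest FPKM was 1.01. The P450 gene just outside was HF19990 (chromosome 14, 2010025 to 2011269), at 0.998. Passing through a single material was found for 8 genes (2 in SF, 1 in WF and 5 in Mr), which had to differ between materials.

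Summed over the 201 genes, P450 transcripts were lowest in WF buds and opening flowers. The sum was 2611 to 2861 in WF at EB and 2390 to 3052 at ES, but 3369 to 4404 at LS. In SF it was 3587 to 4340, 3516 to 3549 and 3841 to 5582 at EB, ES and LS, and in Mr 3582 to 3851, 3703 to 4457 and 4040 to 4360. The SF and WF ranges did not overlap at EB or ES, and overlapped at LS. The 3 highest genes, HF32232, HF00713 and HF32231, held 38.6% to 43.5% of the sum in SF at EB and 7.96% to 11.2% in WF at EB. Without them, the sum over the other 198 genes was 2122 to 2452 in SF and 2374 to 2633 in WF at EB, and 2401 to 2485 in SF and 2226 to 2630 in WF at ES. These ranges overlapped, so the lower WF sum rested on the 3 highest genes. Levels of P450 genes ranged widely between groups. The range of the 9 group means on the log2(FPKM + 1) scale had a median of 1.99 for P450 genes and 1.13 for all genes tested, and it was at least 3 for 50 P450 genes (24.9%, against 7.96% of all genes). WF at LS was the group with the highest mean for 47 P450 genes (23.4%, against 17% of all genes) and SF at EB for 9 (4.48%, against 9.30% of all genes).

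By mean over the 27 libraries, the leading gene was HF32232 with an FPKM of 464, followed by HF00713 (234), HF32231 (198) and HF23669 (129). HF09443 (118), HF09445 (116), HF43556 (116), HF23666 (95.7), HF06705 (89.2) and HF27431 (88.4) followed. HF06705 also carries a cystatin domain, found in inhibitors of cysteine proteases. HF23669 and HF23666 lie on chromosome 1 with 1 P450 gene that was not kept between them, and varied together over the libraries (r = 0.947, n = 27 libraries of 9 groups, on the log2 scale). Both were low in a single library, WF_LS_1, where HF23669 had an FPKM of 6.10 against 89.7 and 88.5 in the other WF libraries at LS, and HF23666 had 7.14 against 56.8 and 49.1. HF27431 was likewise at 9.0 in WF_LS_1 and at 42.6 and 45.1 in the others. HF00713 (chromosome 4, 321079 to 322968) was lowest in Mr buds. Its FPKM was 60.5, 58.8 and 60.8 in Mr at EB, 151, 232 and 135 in SF at EB, and 118, 121 and 173 in WF at EB. At LS it was 232, 402 and 423 in SF, 603, 297 and 315 in WF, and 267, 299 and 308 in Mr, so the materials overlapped there. Its change from EB to ES in Mr was 1.43 ± 0.23 (log2(FPKM + 1), SE) with a limma adjusted p of 0.00609.

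Many expressed P450 genes lay in an array, that is a run of P450 genes with at most 100 kb between neighbors. There were 65 arrays with 223 of the 366 P450 genes (60.9%) and 111 of the 201 expressed ones (55.2%), and the largest held 13. Neighboring expressed genes in arrays often differed in their pattern. Over 63 adjacent pairs, the correlation across the 27 libraries had a median of 0.405 and ranged from -0.77 to 0.996, with 18 pairs below 0 and 6 above 0.9. In the array of 13 genes on chromosome 15, which holds HF13406 and HF13403, none of the 6 expressed members was a DEG between SF and WF at any stage by limma.

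**Figure D1:**
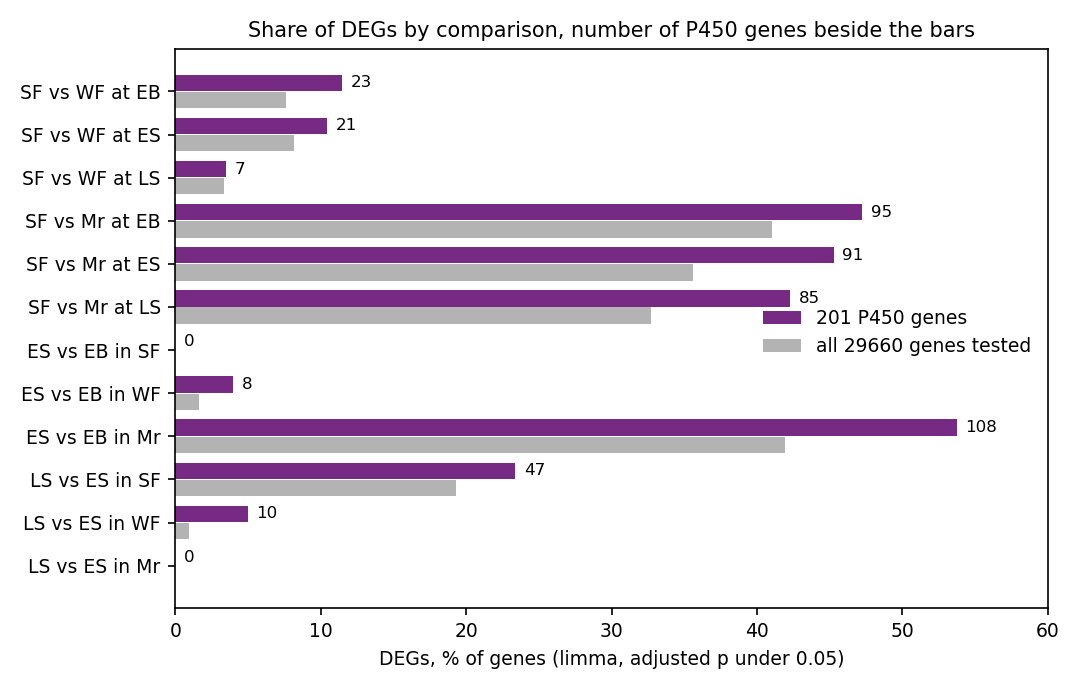
Share of DEGs in 12 comparisons, with P450 genes in purple and all 29660 genes tested in gray; the number beside each purple bar is the count of P450 DEGs. The share was 53.7% for ES against EB in Mr (108 genes), 42.3% to 47.3% for SF against Mr, and 0 for ES against EB in SF and LS against ES in Mr.

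The contrast of SF with WF asks which genes differ between a strongly and a weakly fragrant tree of the same progeny. P450 genes were lower in SF more often than higher in buds, and about as often at ES. DEGs had a limma adjusted p under 0.05 over all genes tested, with any fold change. At EB 23 P450 genes were DEGs, against 7.59% of all genes, of which 6 were higher in SF (4.23% of all genes) and 17 lower (3.35% of all genes). At ES 21 were DEGs (8.14% of all genes), 10 higher (4.43% of all genes) and 11 lower (3.71% of all genes). At LS 7 were DEGs (3.35% of all genes), 4 higher (1.72% of all genes) and 3 lower (1.63% of all genes). All of these had non-overlapping groups, as had every P450 DEG of the other comparisons, so non-overlap added nothing to the calls. As shares of the 201 genes the calls made up 11.4%, 10.4% and 3.48% at EB, ES and LS, close to the share of all genes at LS. The median absolute log2 difference at ES was 0.371 for P450 genes and 0.207 for all genes tested. The count at EB was 13 without SF_EB_2, 15 without WF_EB_1 and 14 without WF_EB_2 (1110, 1291 and 872 of all genes). That at LS was 3 without SF_LS_2 or WF_LS_3 and 4 without SF_LS_3 (291, 263 and 448 of all genes).

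A short array on chromosome 17 held 3 genes that were much higher in SF than in WF. Its 3 genes, HF32233 (31375785 to 31376174), HF32232 (31386776 to 31393239) and HF32231 (31393267 to 31393578), all on the + strand, were lower in every WF library than in any library of SF or Mr. HF32232 had an FPKM of 902, 1135 and 884 in SF at EB, 564, 529 and 621 at ES, then 512, 888 and 648 at LS. WF had 92.2, 83.2 and 103 at EB, 16.8, 18.4 and 20.1 at ES, then 9.38, 3.22 and 19.8 at LS. In Mr it was 708, 732 and 832, 509.5, 823 and 554, and 434, 346 and 526. Every WF library lay below every SF and Mr library, and the WF level was lower in open flowers than in buds. The difference of SF from WF was 3.37 ± 0.15 at EB, 4.88 ± 0.11 at ES, then 6.10 ± 0.59 at LS (log2(FPKM + 1), SE, with adjusted p of 0.000321, 6.63e-05 and 0.00719 by limma). The fall in WF from EB to ES was -2.27 ± 0.12 (limma adjusted p of 0.0227). This call was lost without WF_EB_1, WF_EB_2, WF_EB_3 or WF_ES_2, and without WF_ES_1 only 1 P450 gene was called at this step.

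HF32233 was at an FPKM of 120.4, 139 and 116 in SF at EB, 70.4, 59.0 and 78.6 at ES, then 58.2, 108 and 76.1 at LS. The WF values were 2.27, 2.35 and 2.95, 0.227, 0.226 and 0.137, and 0.738, 0.120 and 0.742. In Mr it was 56.1, 55.9 and 53.0, 51.0, 60.8 and 42.3, and 38.0, 28.8 and 39.6. WF was below the other materials in every library, and at ES and LS it was under an FPKM of 1. Limma gave differences of SF from WF of 5.16 ± 0.13, 5.87 ± 0.14 and 5.72 ± 0.30 at EB, ES and LS (log2(FPKM + 1), SE), with adjusted p of 0.000111, 7.08e-05 and 0.00176. SF also exceeded Mr at EB by 1.17 ± 0.09 (adjusted p of 0.000382) and at LS by 1.13 ± 0.24 (0.0169).

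HF32231 ranged from 252 to 521 in SF, from 1.5 to 41.5 in WF and from 121 to 323 in Mr. Its difference of SF from WF was 3.89 ± 0.32 at EB, 4.98 ± 0.20 at ES, then 6.09 ± 0.49 at LS (adjusted p of 0.00197, 0.000179 and 0.00476). HF32232 and HF32231 are separated by 27 bases, their lengths in the table are 261 and 312 bases, and over the libraries they varied together (r = 0.990). With HF32233 at 390 bases, all 3 are far below the median length of P450 genes, and whether they are separate genes was not tested. FPKM of such short models also rests on few bases, although their fragments were many.

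**Figure D2:**
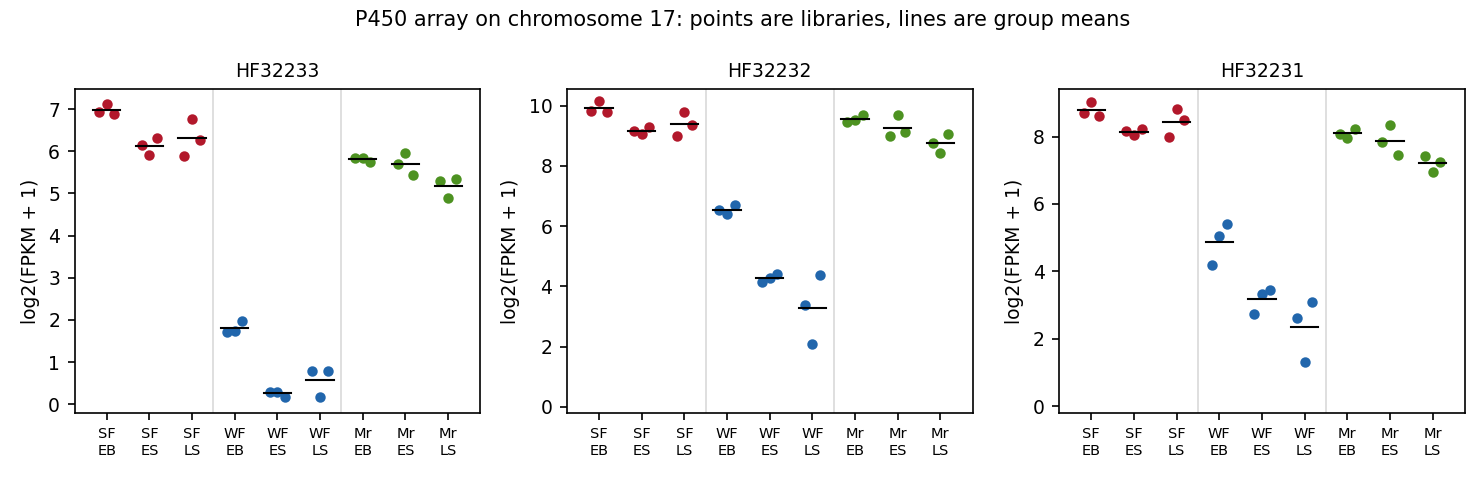
FPKM of the 3 genes of the chromosome 17 array on the log2(FPKM + 1) scale (y axis) in the 9 groups (x axis), with a point per library and a line at the group mean. In each gene all 9 WF points (blue) lie below all SF (red) and Mr (green) points.

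A second array with DEGs between SF and WF lay on chromosome 14 (29380205 to 29633308). It holds 12 P450 genes, of which 9 were expressed, and at ES 1 of them was higher in SF and 3 were lower, with 1 and 4 at EB. HF24647 (29493472 to 29494218, + strand) was near 0 in SF. Its FPKM in SF was 0.431, 1.24 and 0.311 at EB, 0.345, 0.403 and 0.159 at ES, then 16.6, 0 and 0.311 at LS. WF stood at 21.5, 37.4 and 36.7 at EB, 68.4, 28.4 and 37.2 at ES, then 28.2, 29.0 and 33.6 at LS, and in Mr it ranged from 12.9 to 81.4. The single high SF value was that of SF_LS_1, one of the libraries set apart above, and all other SF libraries lay below all WF and Mr libraries. The difference of SF from WF was -4.31 ± 0.30 at EB and -5.04 ± 0.32 at ES (log2(FPKM + 1), SE; limma adjusted p of 0.0011 and 0.00072), and from Mr it was -3.58 ± 0.29 and -5.29 ± 0.37 (0.000535 and 0.000294).

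A newly assembled gene next to it (29495611 to 29517418, - strand) followed HF24647 closely (r = 0.996 over 27 libraries). It was at an FPKM of 0.635, 1.05 and 0.430 in SF at EB, 0, 0.297 and 0.0440 at ES, then 13.1, 0.0455 and 0 at LS. In WF it ranged from 17.7 to 46.1 and in Mr from 8.61 to 50.5. Again SF_LS_1 was the only SF library above 2. Its difference of SF from WF was -3.69 ± 0.21 at EB and -4.71 ± 0.33 at ES (adjusted p of 0.000507 and 0.000937). A further assembled gene (29502264 to 29517418, + strand) overlaps it on the other strand. It was at 0 in all SF libraries at EB and at most at 0.118 in the other SF libraries, against 0.602 to 3.90 in WF and 1.73 to 4.10 in Mr. At EB the level was at least 12.2-fold higher in WF and at least 13.8-fold higher in Mr than 3 fragments per SF library would give (adjusted p of 0.0237 and 0.00153). The library kit does not mark strand, so reads from the pair of assembled genes cannot be told apart where they overlap, and HF24647 lies next to them.

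In the same array HF24656 (29415293 to 29422817, - strand) went the other way. Its FPKM was 3.83, 4.97 and 4.95 in SF at EB, 2.43, 3.70 and 3.20 at ES, then 3.56, 1.27 and 0.630 at LS. In WF it was 0.773, 0.308 and 0.585, 0.227, 0.503 and 0.245, and 0.0549, 1.12 and 0.166, while Mr ranged from 3.14 to 6.58. WF lay below SF at EB and ES and overlapped it at LS. The difference was 1.85 ± 0.18 at EB and 1.63 ± 0.17 at ES (log2(FPKM + 1), SE; limma adjusted p of 0.00322 and 0.0037). HF24645 was lower in SF than in WF at EB by -1.57 ± 0.31 (0.0362) and lower than in Mr at each stage. The other expressed genes of the array were no DEGs between SF and WF. HF24662, which also carries a lipase region, ranged from 8.80 to 35.0, and HF24638 from 2.5 to 57.6. HF24641 had a single high value of 6.05 in WF_ES_3 and was otherwise between 0 and 1.47. HF24635 ranged from 0.406 to 4.82 in SF and WF and from 0 to 0.703 in Mr.

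**Figure D3:**
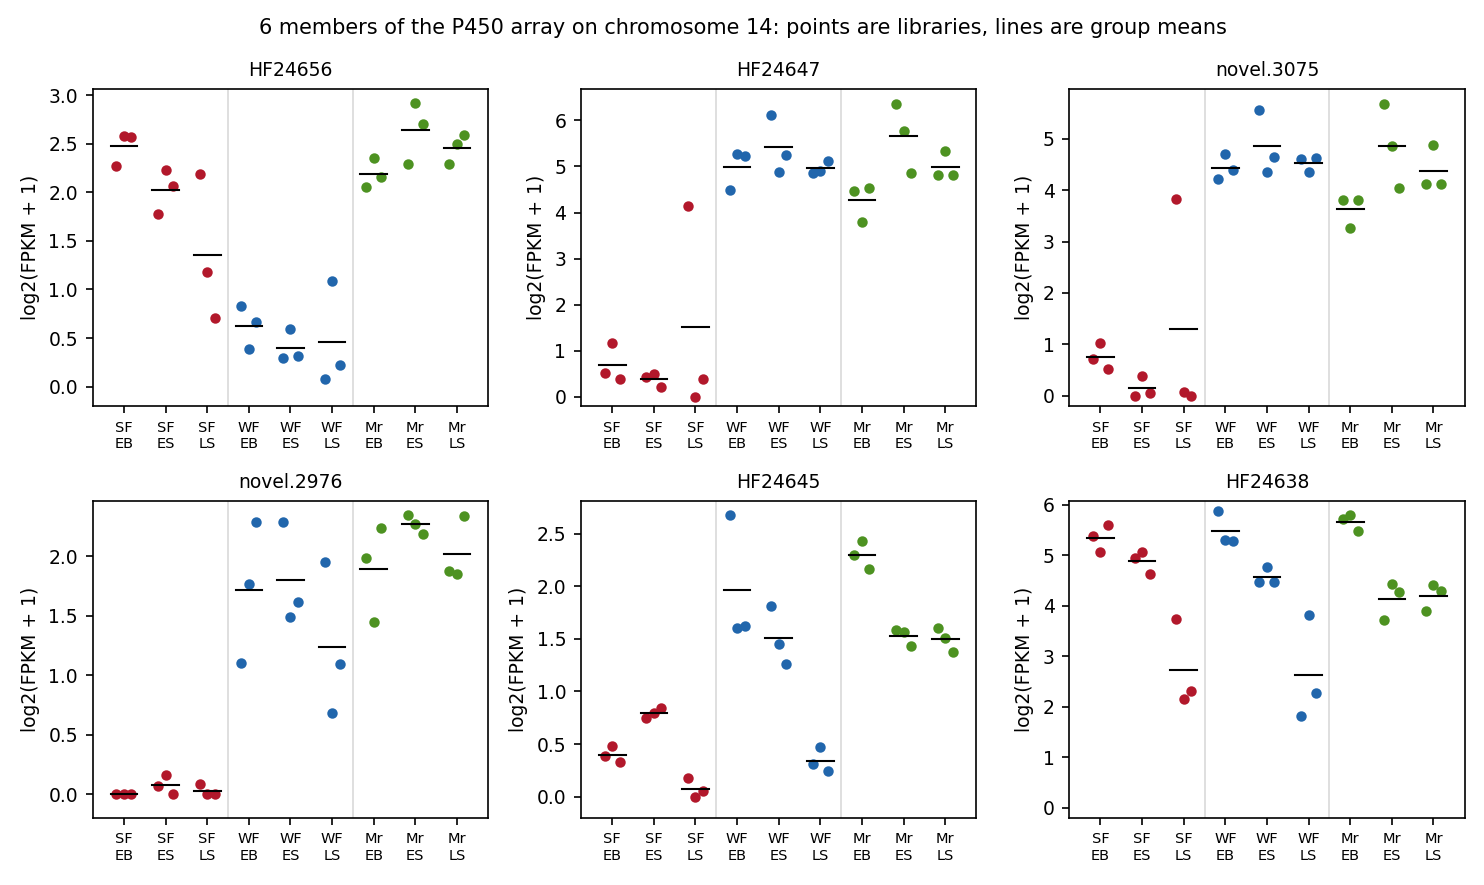
Levels of 6 of the 9 expressed genes of the chromosome 14 array on the log2(FPKM + 1) scale (y axis) in the 9 groups (x axis), with a point per library and a line at the group mean. HF24647 and both assembled genes are near 0 in SF (red), apart from SF_LS_1 in HF24647 and the assembled gene beside it, HF24656 is lower in WF (blue) than in SF at EB and ES, and HF24638 overlaps between SF and WF at each stage.

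An array on chromosome 13 (8174586 to 8264449) held 4 expressed genes of 5, of which 3 were lower in SF than in WF at EB and 2 at ES. HF42779 (8247536 to 8248468) had an FPKM of 1.5, 2.98 and 0.873 in SF at EB, then 2.76, 3.02 and 1.53 at ES. WF had 34.4, 19.6 and 17.4 at EB, then 10.2, 21.3 and 20.2 at ES, and at LS it reached 148 in WF_LS_2 with 16.6 and 27.8 in the other libraries. In Mr it ranged from 5.96 to 30.6. SF lay below WF in every library at EB, ES and LS. The difference from WF was -3.17 ± 0.37 at EB and -2.37 ± 0.33 at ES (limma adjusted p of 0.00621 and 0.0104), and SF was also below Mr at each stage, by -1.52 ± 0.28, -1.72 ± 0.32 and -2.0 ± 0.26 (0.00866, 0.00919 and 0.0039). HF42780 (8263703 to 8264449) was at most at 1.29 in SF, at 1.78 to 10.9 in WF and at 1.44 to 6.74 in Mr, with a difference from WF of -3.06 ± 0.25 at EB (0.00181). HF42775 was lower than in WF by -2.01 ± 0.31 at EB (0.017) and by -1.05 ± 0.23 at ES (0.0457). The fourth gene, HF42774, was at 1.32 to 7.49 in SF at EB and at 3.19 to 6.62 in WF, and was no DEG between them.

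Among the DEGs outside these arrays, the largest differences at ES were those of HF29781 and HF39957. HF29781 (chromosome 10, 25946896 to 25949121) was higher in SF, with 2.67, 4.29 and 8.37 against 0.561, 0.659 and 1.17 in WF, a difference of 1.67 ± 0.36 (limma adjusted p of 0.0454). This call was lost without any 1 of 5 of the 6 libraries (all but SF_ES_1), with adjusted p up to 0.121. HF39957 (chromosome 3, 3744243 to 3773458) was lower in SF, with 0.175, 0.316 and 0.462 against 2.16, 3.38 and 3.80, a difference of -1.63 ± 0.19 (0.00648). At LS HF04517 was lower in SF by -1.28 ± 0.18 (0.0212) and an assembled gene on chromosome 14 (25179290 to 25179955) by -1.13 ± 0.15 (0.02). The call for HF04517 was lost without any single library (adjusted p of 0.051 to 0.129), and that for the assembled gene without SF_LS_1, SF_LS_2, SF_LS_3 or WF_LS_3. HF04517 was also the only P450 gene whose 9 WF libraries all lay above the other 18 (0.637% of all genes did so), at 3.56 to 7.81 against 0.878 to 3.18.

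HF08054 (chromosome 16, 228472 to 230837) was the only P450 gene that passed the filter through 1 group. The study names it for its relation to volatiles in these same samples, and gives CYP86B1, a fatty acid hydroxylase of Arabidopsis thaliana, as its best match. Its FPKM was 2.05, 1.54 and 2.0 in SF at ES. In SF it was 0.183, 0.702 and 0.232 at EB, then 0.114, 0.175 and 0.231 at LS, and in WF and Mr it did not exceed 0.410 in any library. The level was highest in SF at ES, which is also what let it pass the filter, so these levels are a description and no test of SF at ES is given for it.

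Compared with Mr, 42.3% to 47.3% of the P450 genes differed in SF, in both directions. At EB 95 were DEGs (41.0% of all genes tested were), with 49 higher in SF (22.1% of all genes) and 46 lower (18.9% of all genes). At ES 91 were DEGs (35.6% of all genes), with 48 higher (18.8% of all genes) and 43 lower (16.8% of all genes). At LS 85 were DEGs (32.7% of all genes), with 40 higher (16.4% of all genes) and 45 lower (16.3% of all genes). The count at LS was 104 without SF_LS_1 and 56 without SF_LS_2 (11740 and 5092 of all genes). It was 91 without SF_LS_1 and Mr_LS_2 (8647 of all genes), an alternative chosen after seeing the data. As shares of the genes kept these were 47.3%, 45.3% and 42.3% at EB, ES and LS. All of them had non-overlapping groups, which again came with every call. The median absolute log2 difference at ES was 0.619 for P450 genes (0.62 with genes at 0 in a group set to their bound) and 0.368 for all genes tested. The part of the green tissue transcripts, which were higher in Mr, in these counts was not tested.

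Mr stood apart from both progeny trees for 13 P450 genes, a share close to that over all genes tested. All 9 Mr libraries lay above the other 18 for 9 genes (4.48%, against 3.08% of all genes tested) and below them for 4 (1.99%, against 2.93%). HF24768 (chromosome 14, 28567043 to 28573930), which also carries a domain of a membrane protein, had an FPKM of 86.8, 103 and 76.0 in Mr at EB, 101, 74.6 and 125 at ES, then 203, 147 and 128 at LS. In SF it was 3.96, 4.31 and 6.66 at EB, 9.53, 11.2 and 6.15 at ES, then 5.91, 4.73 and 4.93 at LS, and in WF 3.69 to 22.6. Every Mr library was far above every SF and WF library, while SF and WF overlapped. The difference of SF from Mr was -3.92 ± 0.20, -3.35 ± 0.26 and -4.67 ± 0.19 at EB, ES and LS (log2(FPKM + 1), SE; limma adjusted p of 0.000124, 0.000406 and 0.000388).

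HF17505 (chromosome 15, 47755923 to 47758406) passed the filter through Mr only. It was at 4.85, 2.34 and 6.67 in Mr at EB, 20.04, 22.5 and 15.1 at ES, then 10.9, 13.9 and 14.04 at LS, and at 0 to 0.986 in the other libraries. HF13403, a short gene of the chromosome 15 array, was at 1.52 to 4.29 in Mr and at 0 in all but 1 of the other libraries, which was SF_LS_3 at 0.151. HF29975 was at 0.525 to 2.0 in Mr and at 0 in all other libraries, and at ES the Mr level was at least 13.3-fold higher than 3 fragments per SF library would give. HF17505, HF13403 and HF29975 all passed the filter through Mr alone and had to differ, so no test is given for them. The other genes above in Mr were HF43556, HF34546, HF09341, HF20737 and HF31610. HF43556 had an FPKM of 172 to 307 in Mr, 32.9 to 71.5 in SF and 56.2 to 133 in WF, and it was also lower in SF than in WF at EB by -1.14 ± 0.16 (0.0123). HF31610 was lower in SF than in Mr at ES by -2.47 ± 0.15 (0.000181), HF34546 by -1.86 ± 0.15 (0.000414), HF09341 by -0.60 ± 0.15 (0.0246) and HF20737 by -0.56 ± 0.12 (0.0146).

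Among the genes below in Mr, HF34622 (chromosome 8, 29991362 to 29993588) had an FPKM of 0.584, 0.70 and 0.663 in Mr at EB, 0.672, 0.733 and 0.358 at ES, then 0.275, 2.33 and 0.432 at LS. In SF it was 25.2, 27.6 and 14.7, 14.7, 12.8 and 14.4, and 12.5, 98.9 and 44.6, and in WF it ranged from 5.13 to 90.7. The highest Mr value was that of Mr_LS_2, the other library set apart. The difference of SF from Mr was 3.79 ± 0.24, 3.24 ± 0.14 and 4.43 ± 0.76 at EB, ES and LS (limma adjusted p of 0.000245, 8.11e-05 and 0.00838). An assembled gene on chromosome 6 (27853324 to 27856777) was at 0 in Mr at EB, at most at 0.0300 at ES and, at LS, at 0, 0.410 and 0.0321, against 1.03 to 6.09 in SF and WF. At EB SF was at least 50.7-fold higher than 3 fragments per Mr library would give (adjusted p of 0.00181), and again the highest Mr value came from Mr_LS_2. HF03307 was higher in SF by 1.67 ± 0.21, 2.20 ± 0.12 and 2.03 ± 0.26 at the 3 stages (0.00235, 0.000149 and 0.00378). HF25533, which carries a further domain, was at 3.65 to 8.22 in Mr and at 9.31 to 28.5 in SF and WF. Without the libraries set apart, 8 genes lay below in Mr (3.98%, against 4.16% of all genes in that setting), with HF29363, HF23544, HF03778 and HF24635 added.

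**Figure D4:**
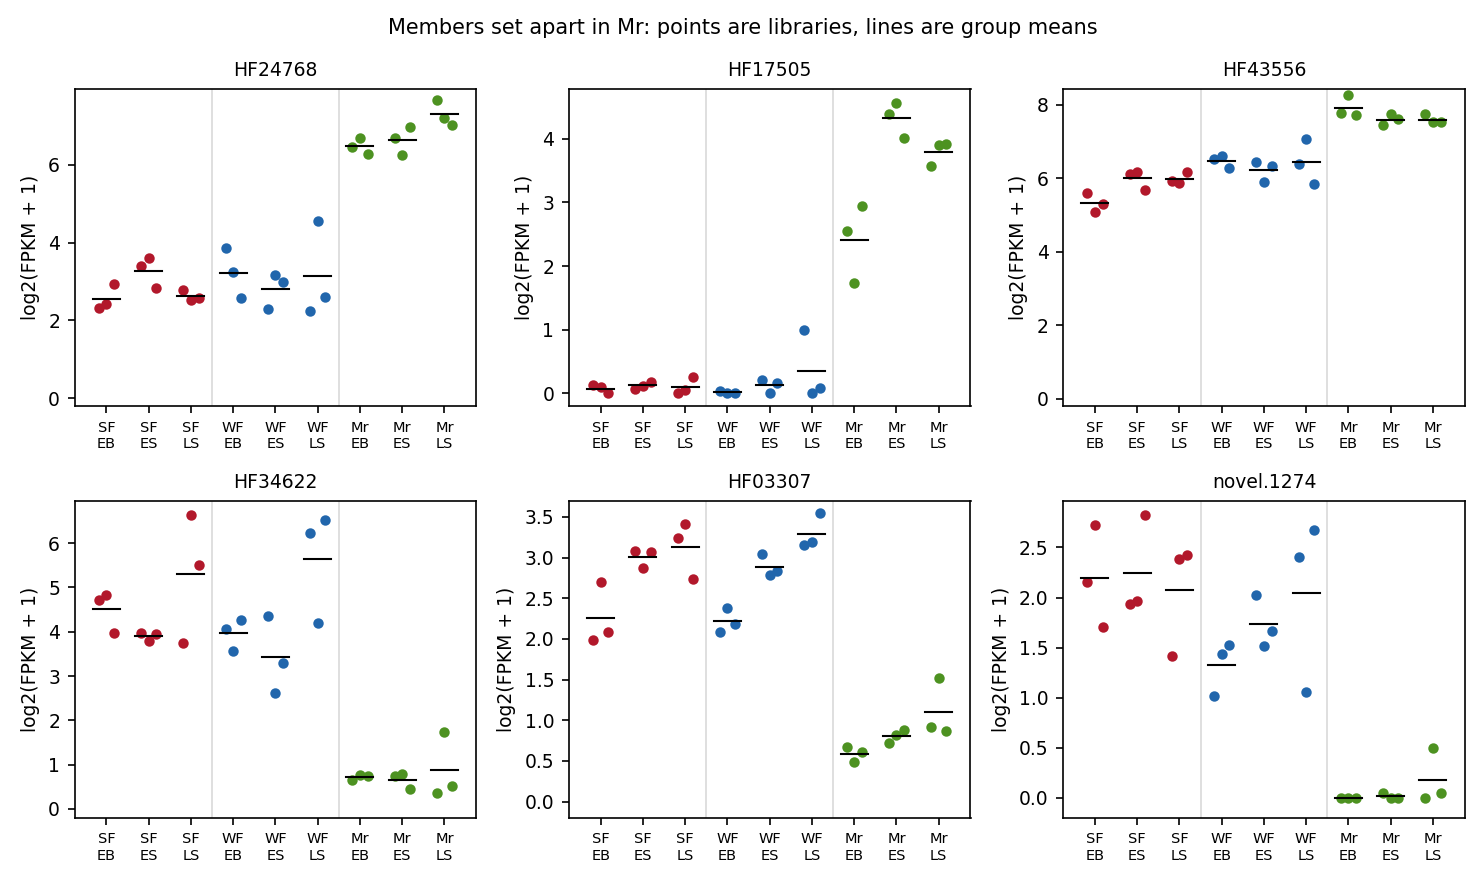
Levels of 6 genes whose Mr libraries all lay above (HF24768, HF17505, HF43556) or below (HF34622, HF03307 and the assembled gene of chromosome 6) the other 18 libraries, on the log2(FPKM + 1) scale (y axis) in the 9 groups (x axis), with a point per library and a line at the group mean. The Mr points (green) do not overlap the SF (red) or WF (blue) points in any panel.

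Of the other genes with large differences from Mr, HF35679 (chromosome 13, 42794395 to 42796782) had an FPKM of 27.4, 58.8 and 47.2 in SF at EB against 1.11, 1.26 and 1.54 in Mr, a difference of 4.24 ± 0.28 (limma adjusted p of 0.000279). HF23544 and HF25839 were higher in SF at ES by 2.14 ± 0.12 (0.000162) and 1.88 ± 0.24 (0.0024). HF36473 (chromosome 12) was lower in SF at EB by -3.62 ± 0.22 (0.000213). HF29363, named here after its values were seen because the study lists it beside leaf acetate, an ester of green leaf scent, had an FPKM of 83.1 to 129.9 in SF, 52.0 to 140.4 in WF and 23.7 to 56.3 in Mr. It exceeded Mr in SF by 1.08 ± 0.16 at EB, 1.40 ± 0.21 at ES, then 0.97 ± 0.19 at LS (0.00397, 0.00442 and 0.0129).

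No P450 gene had all 9 SF libraries above the other 18 (1.45% of all genes did). Below all others in SF were 3 genes (1.01% of all genes), namely HF42780, HF21572 and the assembled + strand gene of the chromosome 14 array, and without the libraries set apart 6 (2.99%, against 1.19% of all genes in that setting), with HF24647, its assembled neighbor and the assembled gene at 25179290 added. HF21572 (chromosome 8) was at 0 in SF at EB and ES and at 0.109, 0 and 0.190 at LS, against 0.431 to 1.62 in WF and 1.60 to 5.97 in Mr. Its difference of SF from WF at LS was -0.65 ± 0.11 (limma adjusted p of 0.0347) and that from Mr was -2.46 ± 0.21 (0.00151). The call against WF was lost without SF_LS_2, SF_LS_3, WF_LS_1, WF_LS_2 or WF_LS_3. Without SF_LS_2, SF_LS_3 or WF_LS_3 no P450 gene was called as lower. Below all others in WF were 4 (0.762% of all genes), the 3 genes of the chromosome 17 array and HF16862. HF16862 (chromosome 7) was at 0 to 0.825 in WF, 0.981 to 3.74 in SF and 1.04 to 2.57 in Mr.

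The comparisons between stages follow opening of the flower (ES against EB) and its aging (LS against ES). In Mr, opening came with many P450 DEGs and aging with none. Such counts depend on the spread between replicates as well as on the size of change. The median absolute log2 change of P450 genes at opening was 0.514 for Mr, 0.377 for WF and 0.316 for SF. At aging it was 0.252 for Mr, 0.533 for SF and 0.557 for WF, where only 10 P450 genes were DEGs. The part of replicate spread in the counts was not tested. With DESeq2 the study reports DEGs for SF opening and Mr aging, where limma called no gene at all. From EB to ES in Mr 108 P450 genes were DEGs (41.9% of all genes tested), of which 67 rose (23.2% of all genes) and 41 fell (18.7% of all genes). These were 53.7% of the 201 genes. With the values scaled by total fragments, which moved the median of all genes by -0.13, 105 were DEGs, 56 rising and 49 falling. The green tissue sum in Mr was 7593 to 8190 at EB and 11697 to 12273 at ES, and its part in these counts was not tested. In SF no P450 gene passed at this step (0% of all genes), and 0 were DEGs by voom (16 of all genes). At an unadjusted p under 0.05 by limma were 53 (5411 of all genes tested). Without SF_EB_2 the count of DEGs was 9 (498 of all genes). In WF 8 were DEGs (1.65% of all genes), 1 higher at ES (0.516% of all genes) and 7 lower (1.13% of all genes), and 3 higher and 7 lower with total fragments. The WF count was 0 without WF_EB_1, WF_EB_2, WF_EB_3 or WF_ES_2 (0, 3, 0 and 0 of all genes). It was 1 without WF_ES_1 and 4 without WF_ES_3 (21 and 128 of all genes).

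The largest rises in Mr at opening were those of HF22612 and HF11662. HF22612 (chromosome 5, 17601028 to 17604132) was low in buds of every material. Its FPKM was 1.19, 1.56 and 1.67 in Mr at EB, 37.3, 28.4 and 32.6 at ES, then 55.7, 35.1 and 43.8 at LS. In SF it was 0.592, 7.19 and 1.57 at EB, 36.6, 32.7 and 23.2 at ES, then 117, 74.0 and 83.5 at LS. The WF values were 0.901, 0.590 and 0.294, 26.4, 41.6 and 6.65, and 64.1, 61.8 and 77.7. In all 3 materials the stages did not overlap between EB and ES. The rise in Mr was 3.77 ± 0.14 (log2(FPKM + 1), SE; limma adjusted p of 0.000216), and in SF it rose further from ES to LS by 1.54 ± 0.24 (0.0194), a call lost without SF_ES_1, SF_ES_3 or SF_LS_2. HF11662 rose in Mr by 3.31 ± 0.47 (0.00426). HF05686 (chromosome 1, 19850405 to 19852091) rose in WF from 1.94, 3.16 and 4.81 at EB to 64.2, 29.5 and 23.9 at ES, by 3.15 ± 0.43 (0.0423), and in Mr by 2.94 ± 0.22 (0.000847). The WF call was lost without any single library, with adjusted p of 0.0668 to 0.134.

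Among the genes that fell at opening, HF20805 (chromosome 14, 16378431 to 16380985) had an FPKM of 60.5, 87.3 and 52.9 in Mr at EB, 6.24, 6.07 and 8.37 at ES, then 2.52, 6.65 and 6.65 at LS. In SF it was 30.3, 9.38 and 25.5 at EB, 17.5, 15.2 and 10.5 at ES, then 2.77, 1.06 and 1.55 at LS, and in WF 77.8, 38.0 and 36.6, 6.17, 15.8 and 8.88, and 0.0285, 6.86 and 0.287. All 3 materials were lowest at LS by their means, and SF overlapped between EB and ES. The fall in Mr was -3.08 ± 0.22 (limma adjusted p of 0.000707). HF36473 (chromosome 12, 2061085 to 2062626) was a bud gene of Mr and WF. It had 15.5, 15.7 and 16.5 in Mr at EB, 9.26, 2.28 and 3.04 in WF at EB, then 0.765, 0 and 0.453 in SF at EB, and at ES it was at 0.791 to 1.29 in Mr and under 0.2 in SF and WF. It fell in Mr by -3.06 ± 0.12 (0.000227). HF26769 (chromosome 2) fell at opening in Mr by -2.09 ± 0.17 (0.001) and in WF by -1.39 ± 0.20 (0.0425). The WF call was lost without WF_EB_1, WF_EB_2, WF_EB_3 or WF_ES_2. Only 1 P450 gene was called at this step without WF_ES_1, so the WF calls of HF26769 and HF32232 did not both hold there. In WF, HF40721 and HF29781 fell by -3.50 ± 0.35 (0.0318) and -2.98 ± 0.34 (0.0328), and both calls were lost without any single library, with adjusted p of 0.0602 to 0.13.

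From ES to LS in SF 47 P450 genes were DEGs (19.3% of all genes tested), with 22 rising (9.58% of all genes) and 25 falling (9.73% of all genes), which is 23.4% of the 201 genes. The count depended on single libraries. It was 71 without SF_LS_1, 27 without SF_ES_2, 10 without SF_LS_3 and 5 without SF_ES_3 (9543, 4137, 979 and 356 of all genes). It was 0 without SF_ES_1 or SF_LS_2 (6 and 7 of all genes). In WF 10 were DEGs (0.964% of all genes), 8 rising (0.394% of all genes) and 2 falling (0.570% of all genes), and the count was 26 without WF_LS_2, 4 without WF_LS_1, 3 without WF_ES_2 and 0 without WF_ES_1, WF_ES_3 or WF_LS_3. In Mr there were none by limma (0% of all genes), and 0 DEGs by voom. At an unadjusted p under 0.05 by limma were 42 P450 genes (4494 of all genes tested). Without Mr_LS_1 there was 1 DEG (665 of all genes).

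In the aging flower 3 genes had higher levels in both progeny trees than in any Mr library. Their rise from ES to LS passed the test in WF for all 3, and in SF for HF10836 and HF13406. HF10836 (chromosome 5, 30076042 to 30091393) had an FPKM of 10.8, 12.2 and 15.9 in SF at ES, then 86.1, 249 and 315 at LS. WF stood at 7.99, 11.9 and 8.89 at ES, then 256, 94.2 and 150.1 at LS, and in Mr 14.6, 10.1 and 15.0 at ES, then 10.02, 13.996 and 12.3 at LS. The LS libraries of SF and WF lay above every other library, with SF_LS_1 the lowest of them. The rise was 3.78 ± 0.49 in SF (log2(FPKM + 1), SE; limma adjusted p of 0.0154) and 3.88 ± 0.38 in WF (0.0288). The SF call was lost without SF_ES_1, SF_ES_3 or SF_LS_2 (0.0571 to 0.0783), and the WF call without WF_ES_1, WF_ES_2, WF_ES_3 or WF_LS_3 (0.0524 to 0.133).

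HF23973 (chromosome 1, 26117231 to 26121905) had an FPKM of 12.4, 19.5 and 15.0 in SF at ES, then 37.4, 395 and 334 at LS. In WF it was 16.0, 14.3 and 8.85 at ES, then 281, 95.7 and 269 at LS, and in Mr 6.96, 8.25 and 7.71 and 8.63, 11.4 and 8.48. SF_LS_1 was far below the other SF libraries at LS. The rise was called in WF, by 3.83 ± 0.48 (limma adjusted p of 0.0418), but not in SF, and the difference of SF from Mr at LS was 4.05 ± 0.87 (0.0168). The WF call was lost without any single library except WF_LS_2 (0.0781 to 0.155), and the difference from Mr without SF_LS_2, SF_LS_3 or any Mr library (0.0512 to 0.0563). HF13406 of the chromosome 15 array was at 1.57, 4.05 and 2.09 in SF at ES, then 9.31, 15.3 and 37.2 at LS, at 2.41, 1.91 and 2.62 and 42.2, 17.3 and 23.8 in WF, and at 0.524 to 1.82 in Mr at both stages. It rose by 2.44 ± 0.53 in SF (0.0331) and by 3.03 ± 0.34 in WF (0.0355). The SF call was lost without SF_ES_1, SF_ES_3, SF_LS_2 or SF_LS_3 (0.0639 to 0.118), and in WF no P450 gene was called without WF_ES_1, WF_ES_3 or WF_LS_3.

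The short neighbors HF09443 and HF09445 on chromosome 6 also rose late in SF. HF09443 was at 104, 122 and 152 in SF at ES, then 216, 392 and 326 at LS, at 96.0, 53.7 and 76.5 and 375, 104 and 297 in WF, and at 53.0, 72.4 and 53.0 and 88.8, 92.8 and 62.0 in Mr. The rise in SF was 1.27 ± 0.26 (limma adjusted p of 0.0296), and for HF09445 it was 1.3 ± 0.27 (0.0303). Both calls were lost without SF_ES_1, SF_ES_3 or SF_LS_2, where no P450 gene was called as rising. The gene between them, HF09444, is separated from them by 5 and 18 bases, and all 3 are under 1 kb and varied together (r of 0.973 and 0.972 between neighbors).

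Genes that fell with aging in SF included HF20805 by -2.48 ± 0.29 (limma adjusted p of 0.0133) and HF26769 by -2.31 ± 0.36 (0.0198). HF26769 was at an FPKM of 27.6, 27.7 and 23.8 in SF at ES, then 8.61, 3.66 and 2.7 at LS, and in WF at 24.0, 25.5 and 22.1 and 0.652, 11.3 and 2.19. SF and WF did not overlap between these stages. These calls were lost without SF_ES_1 or SF_LS_2, and that of HF26769 also without SF_ES_3 or SF_LS_3 (0.0518 to 0.089 over both genes). In WF, HF41388 fell by -1.86 ± 0.25 (0.0458) and HF15337 by -1.62 ± 0.22 (0.0476), and without any single library but WF_LS_2 neither was called (0.0627 to 0.172). HF41388 was at 18.7 to 29.8 in buds of SF and WF, 3.3 to 3.77 in Mr buds and 0.214 to 1.42 at LS in all materials.

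**Figure D5:**
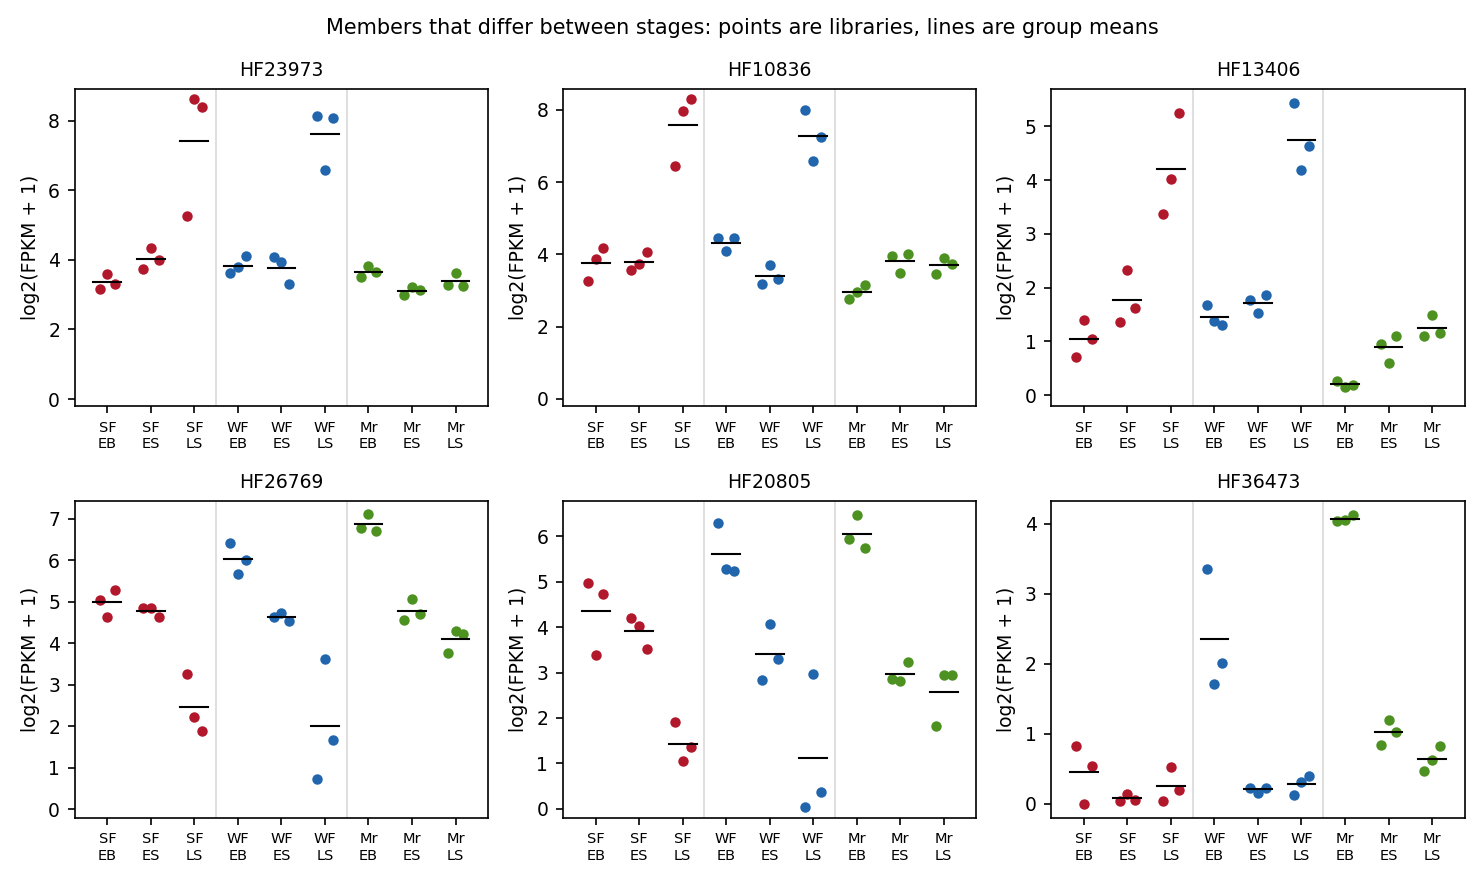
Levels of 3 genes that were high in SF and WF at LS (top row) and 3 that were high in buds (bottom row) on the log2(FPKM + 1) scale (y axis) in the 9 groups (x axis), with a point per library and a line at the group mean. In HF23973, HF10836 and HF13406 every Mr point (green) lies below all SF (red) and WF (blue) points at LS, and HF36473 is highest in Mr at EB.

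Whether a change between stages differed between materials was tested as an interaction in limma. From EB to ES, SF differed from Mr for 41 P450 genes (9.23% of all genes tested did), 18 with a larger log2 change in SF and 23 with a smaller one. With the values scaled by total fragments the split was 23 and 17. The count was 20 without SF_ES_1 and 25 without Mr_ES_2 (1345 and 1495 of all genes). It was 18, 16 and 21 without Mr_EB_1, Mr_EB_2 and Mr_EB_3 (1163, 996 and 1375 of all genes). The difference was 2.68 ± 0.26 for HF36473 (adjusted p of 0.00132), 2.65 ± 0.53 for HF20805 (0.0171) and 1.88 ± 0.26 for HF26769 (0.00494). HF20805 and HF26769 fell less in SF than in Mr. HF36473 was already under an FPKM of 1 in SF buds, so it had little room to fall there. For HF35679 it was -2.69 ± 0.58 (0.0225). No P450 gene differed between SF and WF (0% of all genes), with 34 at an unadjusted p under 0.05 by limma (2184 of all genes tested) and 0 DEGs by voom. From ES to LS, 10 P450 genes differed between SF and Mr (2.88% of all genes), 4 with a larger and 6 with a smaller log2 change in SF. That count was 49 without SF_LS_1, 38 without SF_LS_1 and Mr_LS_2, and 3 to 6 without any other single library. Over all genes these were 4556, 3520 and 120 to 630. The largest of the named genes was HF10836 at 3.90 ± 0.56 (0.013), and HF20805 was at -2.08 ± 0.47 (0.0464). Between SF and WF the only gene called was HF08054 (0.0303% of all genes differed), which was kept through SF at ES alone, so that a difference was built into its choice. The call was also lost without any single library except SF_ES_2 or WF_LS_2. The 2 sets of contrasts share the SF libraries.

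Some genes were nearly confined to 1 group. HF04206 (chromosome 3, 25574062 to 25575109) had 71.9% of the sum of its 9 group means in Mr at LS, where it was at 3.83, 2.89 and 5.01. It was at 0 in every SF and WF library, and Mr at LS was at least 15.7-fold higher than 3 fragments per SF library would give. It passed the filter through Mr alone, so no test is given. HF36473 had 67.9% in Mr at EB. HF28789 had 64.5% in WF at LS, but there it was at 0.750, 24.7 and 5.0, so a single library, WF_LS_2, made most of it. An assembled gene on chromosome 13 (1996488 to 1998402) had 65.3% in SF at LS, with 0, 2.19 and 2.33, and was no DEG.

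Genes that pass electrons to P450 enzymes were read from the same fits. Of 6 genes of the P450 reductase type, by their flavodoxin and FAD binding domains, 5 were expressed, and their summed FPKM was 218 to 424 per library. Of 26 genes with the cytochrome b5 domain, which other proteins also carry, 24 were expressed, with sums of 1219 to 1939. The leading ones were HF02291 (reductase type, mean FPKM of 107) and HF13335 (b5 type, 412). Between SF and WF no reductase gene was a DEG at any stage by limma. At EB 1 b5 gene was higher in SF and 1 lower, at ES 1 was higher and 2 lower, and at LS 1 was lower. Of all genes tested, 4.23%, 4.43% and 1.72% were higher in SF at EB, ES and LS, and 3.35%, 3.71% and 1.63% lower. HF35688 was higher in SF at EB and ES, by 0.92 ± 0.20 (adjusted p of 0.0448) and 1.17 ± 0.17 (0.0122), and HF12505 lower at all stages, by -0.80 ± 0.12, -1.31 ± 0.18 and -1.20 ± 0.22 (0.0164, 0.0111 and 0.0496). Between SF and Mr at ES 2 reductase genes were lower in SF, and of the b5 genes 2 were higher and 4 lower. Of all genes, 18.8% were higher and 16.8% lower there. From EB to ES in Mr 3 reductase genes rose and none fell, HF02291 by 0.72 ± 0.16 (0.0159), HF34968 by 0.54 ± 0.09 (0.00765) and HF19781 by 1.20 ± 0.12 (0.00151), and 6 b5 genes rose and 7 fell, where 23.2% of all genes rose and 18.7% fell. From EB to ES in SF and WF none of these genes was a DEG (0% and 1.65% of all genes were).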

How the data were processed

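RNA of whole flowers was sequenced by the authors as 150 bp paired-end reads and mapped to the apple HFTH1 genome, version 1.0. The authors deposited FPKM values per gene with Pfam domains. The submitters' processing notes name StringTie 1.3.3b and DESeq2 1.16.1, and no aligner is given in the sources used here. FPKM times gene length gave whole multiples of a step per library (100% of 771152 values within 0.05), so fragments were recovered, and floors of 3 fragments cover counting error only.

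Every contrast was tested by limma 3.58.1 (R 4.3.3) on log2(FPKM + 1), trend included, with only the compared groups in the fit and Benjamini-Hochberg adjustment over 29660 genes. This scale understates changes of low genes. The other settings tried were pseudocount 0.1, no low-value filter, a filter of 9 libraries, total-fragment scaling, all 9 groups in one fit, a replicate block, voom on recovered fragments and leaving out libraries. The test was first tried on simulated data. Libraries were set apart above 1% of another material's level, a limit chosen after seeing the values.

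The P450 genes and lists were chosen with earlier results of these data known. Genes were named by rule: the gene the study names, the 10 highest means, the 5 largest rises and falls among non-overlapping DEGs of SF against WF and Mr at ES (2 for other contrasts), genes set apart in a material, arrays with at least 3 expressed genes and 2 DEGs between SF and WF at ES, the threshold genes and the 5 most confined to 1 group. Python 3.11.15, numpy 2.4.6, pandas 2.3.3 and matplotlib 3.10.9 were used.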

Additional observations from a re-analysis of the deposited data

Results flagged for a closer look

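Changes between stages that differed between materials were looked at again, and groups of 3 libraries were not screened for outlying samples. By the limma interaction test, the change from EB to ES differed between SF and Mr for 41 P450 genes (20.4%, against 9.23% of all genes tested). That from ES to LS differed for 10 (4.98%, against 2.88% of all genes). Both counts moved when single libraries were left out. The change from ES to LS differed between SF and WF for 1 gene (0.0303% of all genes), HF08054, which had passed the filter through SF at ES alone.

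Of the named genes, HF20805 differed in its change from EB to ES by 2.65 (SF minus Mr, log2(FPKM + 1)), HF36473 by 2.68, HF26769 by 1.88 and HF23973 by 1.22. For HF20805 the change from ES to LS differed by -2.08 and for HF10836 by 3.90. The SF libraries are shared by these tests, and SF_LS_1 and Mr_LS_2 enter those at LS.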

How the results depend on the processing

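Of 688 recomputed values of named genes, 587 kept their direction and side of the threshold, 101 lost the call (70 without 1 library, 15 with the replicate block) and 0 reversed. With all 9 groups in the fit, P450 DEGs between SF and WF numbered 35 at EB, 32 at ES and 22 at LS, with 80, 73 and 100 between SF and Mr; from EB to ES there were 15 in SF, 31 in WF and 71 in Mr, from ES to LS 69 in WF and 1 in Mr, and the interactions gave 1 (EB to ES, SF against WF), 13 (EB to ES, SF against Mr) and 18 (ES to LS, SF against Mr). Same-numbered samples did not deviate together (0 of 12 comparisons had every pair over 0.1), so the numbers do not pair them. The replicate block left 11 DEGs between SF and WF at EB and 0 at LS (728 and 0 of all genes). It left 0 from EB to ES in WF and 0 from ES to LS in SF and in WF (0, 2 and 2 of all genes). In the interactions of ES to LS it left 0 with WF and 4 with Mr (0 and 237 of all genes). Without a filter there were 2 from EB to ES and 2 from ES to LS in WF (113 and 98 of all genes). In SF there were 23 from ES to LS (3246 of all genes). The interactions then gave 1 for EB to ES with WF and 6 for ES to LS with Mr (25 and 641 of all genes). The stricter filter gave 15 from EB to ES in WF (692 of all genes). In the interaction of ES to LS with WF it gave 0 (2 of all genes). A pseudocount of 0.1 gave 0 and 6 in the interactions of ES to LS with WF and Mr (0 and 581 of all genes). Voom gave 16 from EB to ES and 5 from ES to LS in WF (701 and 137 of all genes). In the interactions of ES to LS with WF and Mr it gave 0 and 5 (0 and 600 of all genes). Without SF_LS_1 and Mr_LS_2 the interaction of ES to LS with Mr gave 38 (3520 of all genes). In that setting 6 genes lay below in SF (1.19% of all genes) and 8 below in Mr (4.16% of all genes). The cause was not tested for any of these.

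Leaving out 1 library at a time gave 13 to 19 DEGs between SF and WF at EB, 14 to 17 at ES and 3 to 6 at LS. Over all genes the calls were 872 to 2047, 1075 to 1988 and 263 to 753. Against Mr the range at LS was 56 to 104 (5092 to 11740 of all genes). From EB to ES it was 0 to 9 in SF and 0 to 4 in WF (0 to 498 and 0 to 128 of all genes). From ES to LS it was 0 to 71 in SF, 0 to 26 in WF and 0 to 1 in Mr. Over all genes these last ranges were 6 to 9543, 0 to 1574 and 0 to 665. The interactions ranged from 16 to 54 (EB to ES with Mr), 0 to 1 (ES to LS with WF) and 3 to 49 (ES to LS with Mr). Over all genes they ranged from 996 to 3838, 0 to 9 and 120 to 4556. At this depth a gene of 1 kb below an FPKM of 0.095 to 0.193 rested on under 3 fragments.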
